A study of Macaca fascicularis with 48 samples.

Results

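A set of 94 genes was examined whose level differed strongly between the 2 frontal cortex libraries of the same cynomolgus monkey (Macaca fascicularis), with no direction shared by nearly all animals. The genes were picked from 28623 Ensembl gene IDs by their CPM, a gene's count divided by the sum of all counts of its library and scaled so that each library sums to 1000000. For each animal, d was the log2 ratio of CPM + 0.5 in the higher-numbered library over that in the lower-numbered one, so that a d of 1 is a 2-fold difference on that scale. A gene was a member if its mean over the 48 libraries was at least 5 CPM, it was not among the 30 IDs with the most counts, its median absolute d was at least 0.7, its d was above 0 in 4 to 20 of the 24 animals, and its levels in paired libraries had a Pearson correlation below 0.9. The same libraries chose the members, so the sizes and signs of d below are a description, and no p-value is given for them.

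Each monkey had been dosed once by vein, at 200 mg/kg, with the TREM2-activating antibody hPara.09 or with its isotype control, anti-gD. Brain was collected 4 or 28 days later, which gave 4 groups of 6 animals: anti-gD day 4 (animals 1 to 6), hPara.09 day 4 (animals 7 to 12), anti-gD day 28 (animals 13 to 18) and hPara.09 day 28 (animals 19 to 24). In the sample labels the activating antibody is written Para09.v2, and in the design text hPara.09. Every group was dosed, so none was untreated. Each animal gave RNA from a pair of different frontal cortex punches, sequenced as libraries n and n + 24. The labels do not state which place in the frontal cortex either library comes from, and they give no ages.

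The cerebral cortex is built of layers of neurons with different inputs and outputs, interleaved with astrocytes, oligodendrocytes, microglia and blood vessels, and covered by meninges. A punch of frontal tissue holds these in proportions that depend on where it was cut, and bulk RNA sequencing measures their sum. TREM2 is a surface receptor that in the brain is found on microglia, the resident macrophages. In bulk tissue, fewer cells of a type and less RNA per cell cannot be told apart.

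The deposited tables pair no ID with a gene name, and 0 of the 28623 IDs could be matched to a symbol. Members are therefore given by ID, with no name or role, and the labelled tissue was not checked against marker genes. Total counts ranged from 12137146 (library 29) to 32118950 (library 10), and the 30 IDs with the most counts took 16.7% to 39.3% of a library, the highest share again in library 29 (animal 5). Since each CPM is a share of the library, a large share taken by a few genes lowers the CPM of all others.

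The members did not lack direction gene by gene. Of 11380 genes that averaged at least 5 CPM, 11350 were outside the 30 most abundant, and 257 of those had a median absolute d of 0.7 or more. Among the 257, d was above 0 in 21 to 24 animals for 30 genes and in 0 to 3 animals for 133 genes, and the other 94 were the members. The limit on the correlation removed 0 of them. Of the 94, 56 had d above 0 in 16 to 20 animals and 35 in 4 to 7 animals, while 3 genes lay in the middle, at 8 to 15 animals. As many as 24 members sat exactly at 4 animals and 14 exactly at 20, so 38 were on a limit of the rule. The set is thus better described as parts of 2 opposite tendencies than as genes with an even split. On the low side it holds only the edge of the tendency, and on the high side most of the genes.

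**Figure D1:**
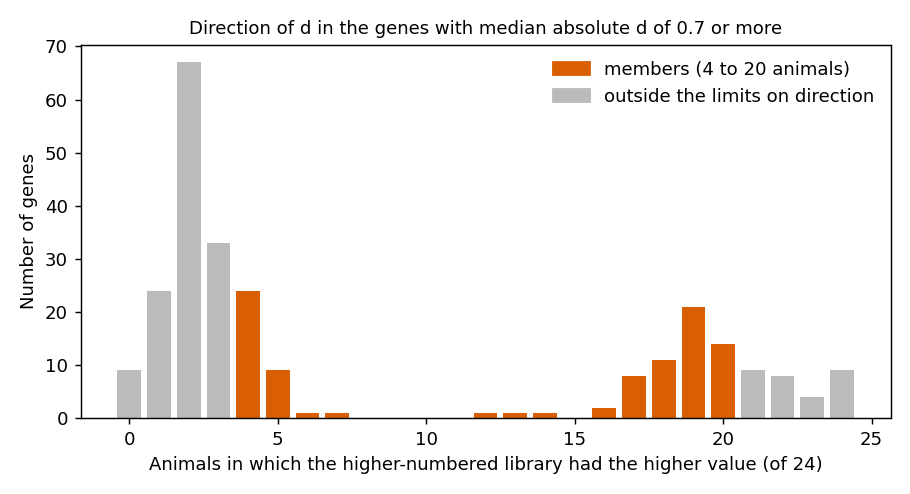
Number of genes (vertical axis) by the number of animals, of 24, in which the library numbered n + 24 had the higher value (horizontal axis), for the 257 genes with a median absolute d of 0.7 or more. Orange bars are the 94 members and grey bars the 133 and 30 genes outside the limits of 4 and 20 animals. On the low side the members form the inner flank of a hump that peaks at 2 animals (67 genes). On the high side they hold the peak itself, at 19 animals (21 genes).

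Members lay close to the limits on level and on the size of d. The lowest mean among members was 5.03 CPM (ENSMFAG00000030671), and the nearest gene under the limit of 5 had 4.99995 CPM (ENSMFAG00000000121). The smallest median absolute d of a member was 0.702 (ENSMFAG00000043667), against 0.697 for the nearest gene outside (ENSMFAG00000040116). The highest correlation between paired libraries in a member was 0.859 (ENSMFAG00000041874), and no gene that met the other criteria stood outside that limit.

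Over the members, the median of the median absolute d was 0.83, with a range of 0.70 to 2.26, against 0.22 for all 11380 genes. The correlation of log2 levels between paired libraries had a median of 0.44 over members, from -0.23 to 0.86, and 0.56 over all genes. The median standard error of d from counts alone was 0.14 for members, which covers counting only and treats each read as an independent molecule. In levels the members were ordinary or somewhat low, with a median of 2.92 RPKM (reads per kilobase of gene, scaled to library size, as deposited) against 6.44 for all. Short genes were more frequent among them, since 15 of 94 (16.0%) were under 1000 bases wide in the deposited annotation, against 7.06% of all 11380 genes. The median widths were closer, at 2856 and 3185 bases.

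The d values fell into 3 blocks that moved together from animal to animal. Average-linkage clustering of the members on the correlation of d over the 24 animals gave block A with 50 members, block B with 34 and block C with 6, and 4 members joined none. The mean pairwise correlation of d was 0.77 in block A, 0.78 in block B and 0.79 in block C. The clustering joined members by this same correlation, so high means are built in. Single pairs were as low as 0.11 in block A, 0.23 in block B and 0.55 in block C. Direction went with the block: d was above 0 in 13 to 20 animals for block A, in 4 to 7 animals for block B and in 17 to 20 animals for block C. The members of a block also rose and fell together across animals within 1 library set. Over libraries 1 to 24 the mean pairwise correlation of log2 levels was 0.63 in block A, 0.73 in block B and 0.34 in block C, and over libraries 25 to 48 it was 0.63, 0.69 and 0.48. These correlations are over 24 animals, and all genes of a library share its depth and its composition.

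**Figure D2:**
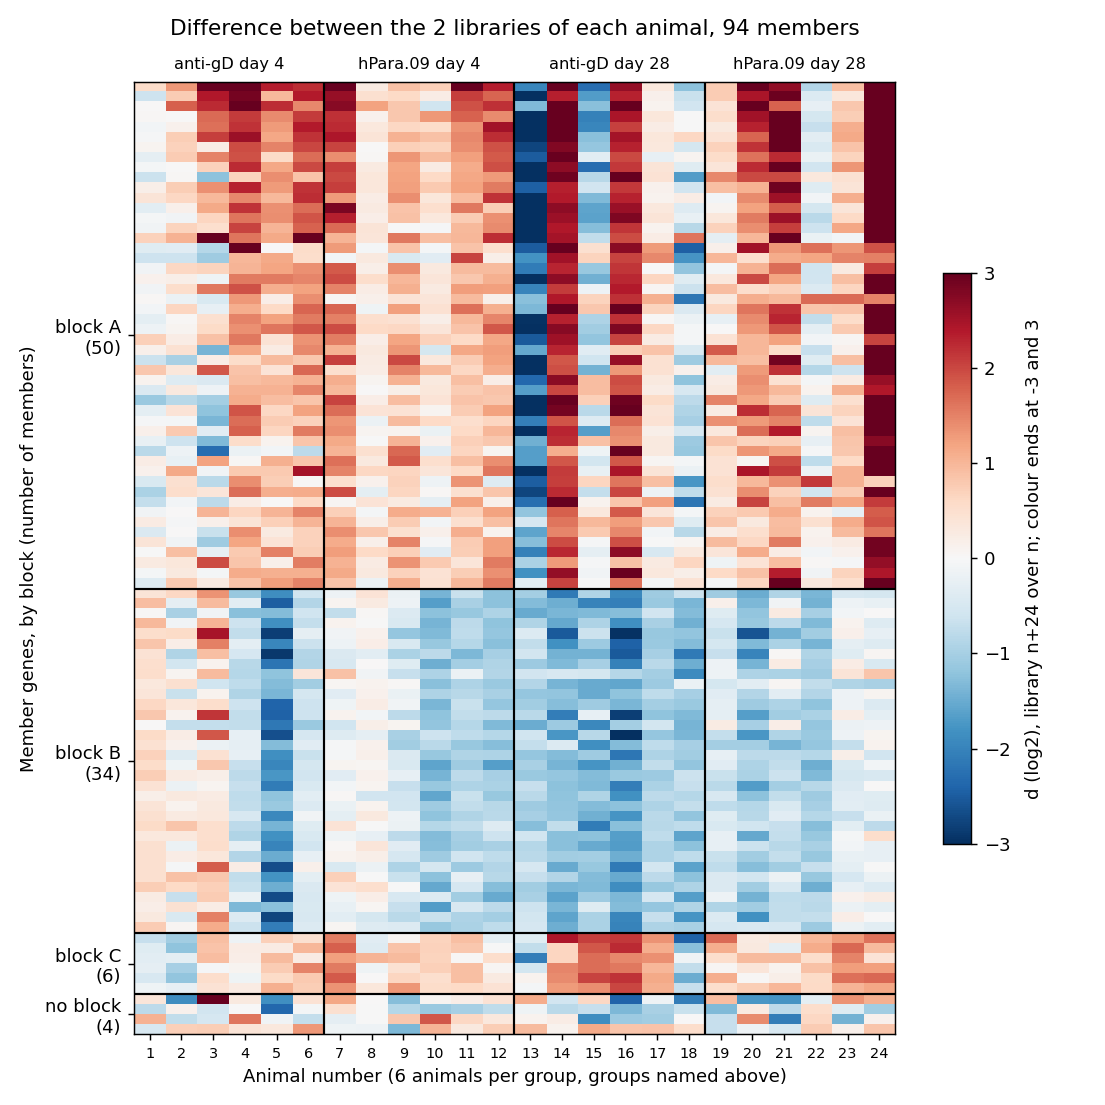
Each row is a member and each column an animal, ordered by group; colour gives d (log2 of CPM + 0.5 in library n + 24 over library n), with red above 0 and blue below. Block A (50 rows) is deep blue in animal 13 and deep red in animals 14, 16 and 24, and block B (34 rows) is blue in nearly all animals of day 28.

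Block A held the largest differences. Its members' median absolute d ranged from 0.71 to 2.26, and all 8 members with the largest values belonged to it. In the animal with the highest d a member reached 1.61 to 5.44, and in the animal with the lowest d -5.02 to -0.39. The highest library of a member stood 2.52 to 22.8 times above that member's median library, with a median of 7.13 times. A few animals carried these extremes: animal 24 had the highest d for 36 of 50 members, and animal 13 had the lowest for 46 of 50. The highest CPM was in library 33 (animal 9, hPara.09 day 4) for 15 members, in library 38 (animal 14, anti-gD day 28) for 11 and in library 40 (animal 16, anti-gD day 28) for 11.

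ENSMFAG00000041678, of 2894 bases, had the largest median absolute d, 2.26, with d above 0 in 20 of 24 animals. In anti-gD day 4 animals it had 0.670 to 56.1 CPM in the first libraries (median 6.57) and 2.10 to 138.5 CPM in the second (median 45.5). In hPara.09 day 4 animals the first libraries had 1.23 to 154.5 CPM (median 12.2) and the second 13.2 to 285.2 CPM (median 76.0). The second libraries were thus higher at the median in both day 4 groups, although the ranges overlapped widely. In anti-gD day 28 animals the values were 2.77 to 174.5 CPM (median 25.0) and 1.65 to 243.1 CPM (median 41.0). In hPara.09 day 28 animals they were 0.609 to 73.8 CPM (median 3.10) and 1.37 to 131.3 CPM (median 31.3). The paired values crossed most in the anti-gD day 28 group, where d ran from -2.29 in animal 15 to 3.31 in animal 14, while in the anti-gD day 4 group it ran from 0.54 to 4.66. Across all libraries this gene spanned 15 to 5450 counts.

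ENSMFAG00000042592, the member whose d was closest on average to the rest of block A (mean correlation 0.85), stood at a higher level and had its highest d in the same animal, 24. Its first libraries had medians of 62.1 CPM in anti-gD day 4, 59.4 in hPara.09 day 4, 94.5 in anti-gD day 28 and 21.2 in hPara.09 day 28 animals. Its second libraries had medians of 147.1, 110.7, 105.6 and 55.9 CPM in the same order. Over single libraries it ran from 11.3 CPM in library 25 to 545.4 CPM in library 38, and its d ran from -2.96 in animal 13 to 3.87 in animal 24. The ranges of the 4 groups overlapped.

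The block also included abundant genes. ENSMFAG00000003811, of 659 bases, had the highest level per length among the 94, with a median of 989.2 RPKM and a range of 367.7 to 6185 RPKM over the libraries. In CPM it ran from 392.7 in library 43 to 6646 in library 33, and d was above 0 in 20 of 24 animals, with a median absolute value of 0.72. ENSMFAG00000002871 followed within the block at a median of 147.9 RPKM, with 97.8 CPM at its lowest and 2172 CPM at its highest, in library 40. The 50 members of block A together took 873.0 CPM in library 19 and 11428 CPM in library 33.

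**Figure D3:**
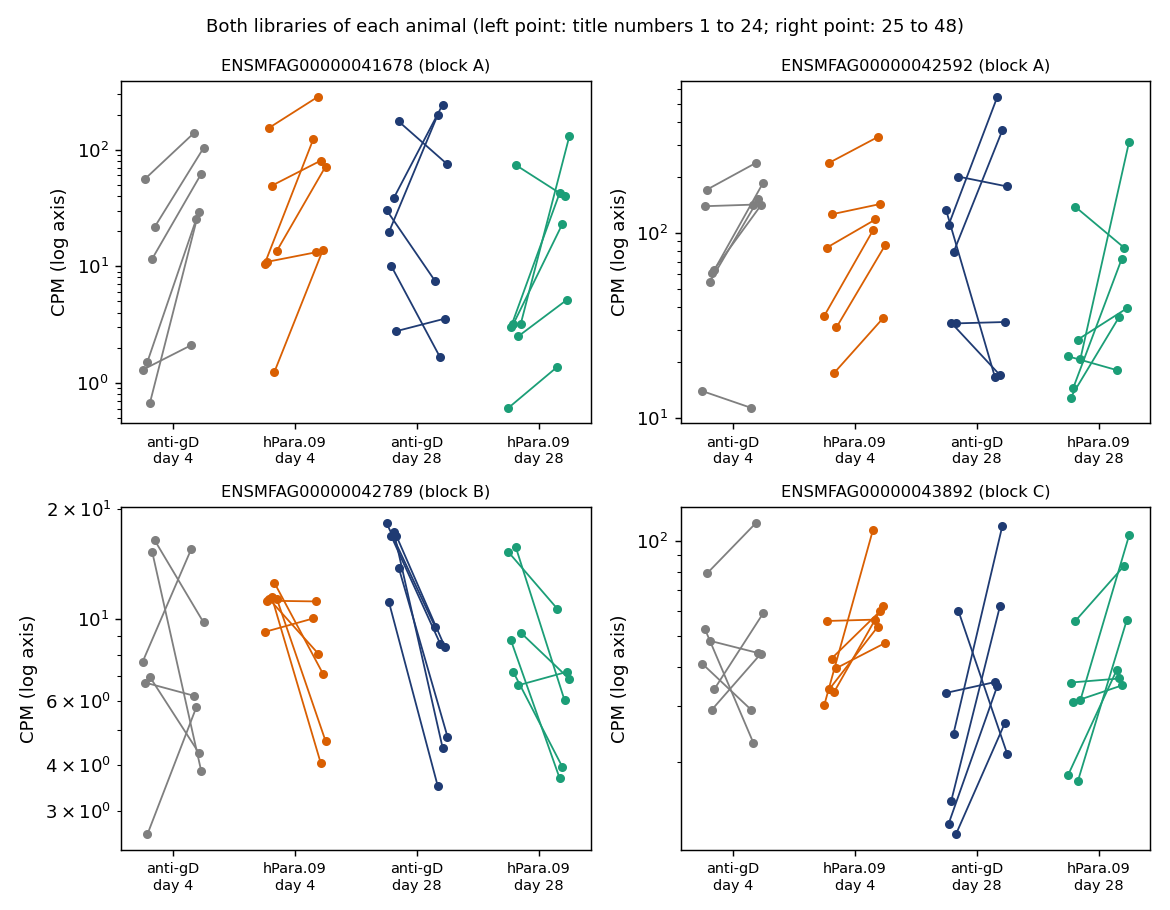
Level (CPM, log axis) of 4 members in the paired libraries of each animal, joined by a line and grouped by antibody and day: ENSMFAG00000041678 and ENSMFAG00000042592 of block A, ENSMFAG00000042789 of block B and ENSMFAG00000043892 of block C. Lines rise in most animals in the block A and C genes and fall in most animals in the block B gene, with single animals crossing the trend in each.

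Block B had smaller but more even differences in the opposite direction. Its members' median absolute d ranged from 0.71 to 0.97, and a member's highest library was 1.76 to 4.25 times its median library. The levels in paired libraries were nearly unrelated, with a median correlation of 0.16 (from -0.23 to 0.39), against 0.52 in block A and 0.63 in block C. The lowest d was in animal 5 for 18 of 34 members and in animal 16 for 8, and the highest d was in animal 3 for 15 and in animal 1 for 11. Library 15 held the highest CPM for 16 members, and libraries 29 and 3 held the lowest for 13 and 10.

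ENSMFAG00000042789, of 3417 bases, was the most central member of block B (mean correlation of d 0.85). In anti-gD day 28 animals its first libraries had 11.1 to 18.3 CPM (median 16.9) and its second 3.52 to 9.51 CPM (median 6.59), so that the sets did not overlap. In hPara.09 day 28 animals the values were 6.61 to 15.7 CPM (median 8.98) and 3.69 to 10.7 CPM (median 6.44), which overlapped. In hPara.09 day 4 animals they were 9.23 to 12.6 CPM (median 11.4) and 4.07 to 11.2 CPM (median 7.58). In anti-gD day 4 animals the sets covered nearly the same range, 2.60 to 16.4 CPM (median 7.31) and 3.87 to 15.6 CPM (median 5.97). The whole gene lay between 47 and 439 counts per library.

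ENSMFAG00000024784 had the lowest correlation between paired libraries of all members, -0.23, with 0.577 CPM in library 29 and 12.7 CPM in library 15. ENSMFAG00000006903, at 186 bases the shortest member, had the highest level per length of the block, with a median of 186.0 RPKM, and its d ran from -2.96 in animal 16 to 2.48 in animal 3. ENSMFAG00000002702, at 16065 bases the longest of the 94, had the lowest level per length of all members, a median of 0.179 RPKM, and a d of -1.93 in animal 5. Both ends of the range of lengths were thus in block B.

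Block C joined 6 members whose second library was higher in 17 to 20 animals. ENSMFAG00000043892, of 6246 bases, was its most central member (mean correlation of d 0.84) and ran from 11.8 CPM in library 17 to 114.0 CPM in library 27. Its d was highest in animal 16 (2.16) and lowest in animal 18 (-1.48), both of the anti-gD day 28 group. ENSMFAG00000045243, of 1630 bases, was the most abundant of the block, with a median of 216.1 RPKM. Its first libraries had group medians of 533.7 CPM in anti-gD day 4, 604.8 in hPara.09 day 4, 379.9 in anti-gD day 28 and 633.3 in hPara.09 day 28 animals. Its second libraries had medians of 524.3, 901.4, 449.6 and 1000 CPM in the same order, with 361.1 to 1370 CPM in hPara.09 day 28 animals. Single libraries reached 2928 CPM in library 31 and 3390 CPM in library 39.

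Of the 4 members outside the blocks, 2 had a nearly even split. ENSMFAG00000030255 had d above 0 in 14 animals, with a d of 3.22 in animal 3 and of -2.40 in animal 16, and 0.824 to 35.8 CPM over the libraries. ENSMFAG00000039227 had d above 0 in 12 animals and ran from -2.07 to 1.87. ENSMFAG00000043667 was at 17 animals and ENSMFAG00000030446 at 5.

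The medians of d over each block showed which animals differed. For block A the median d was above 0 in 19 of 24 animals. It ran from -0.070 to 1.46 in anti-gD day 4, from 0.25 to 1.49 in hPara.09 day 4, from -2.48 to 2.38 in anti-gD day 28 and from -0.22 to 3.69 in hPara.09 day 28 animals. The day 28 ranges were therefore wider than the day 4 ranges and enclosed them. In animal 13 d was above 0 for 0 of 50 members of block A, and in animals 11, 14, 16, 20, 21 and 24 for 50 of 50. For block B the median d was above 0 in 4 animals (1, 2, 3 and 8), all of day 4. It ran from -1.90 to 0.53 in anti-gD day 4, from -1.20 to 0.093 in hPara.09 day 4, from -1.72 to -0.87 in anti-gD day 28 and from -1.07 to -0.18 in hPara.09 day 28 animals. For block C it was above 0 in 19 animals, with the widest range again in anti-gD day 28 animals, from -0.99 to 2.07.

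**Figure D4:**
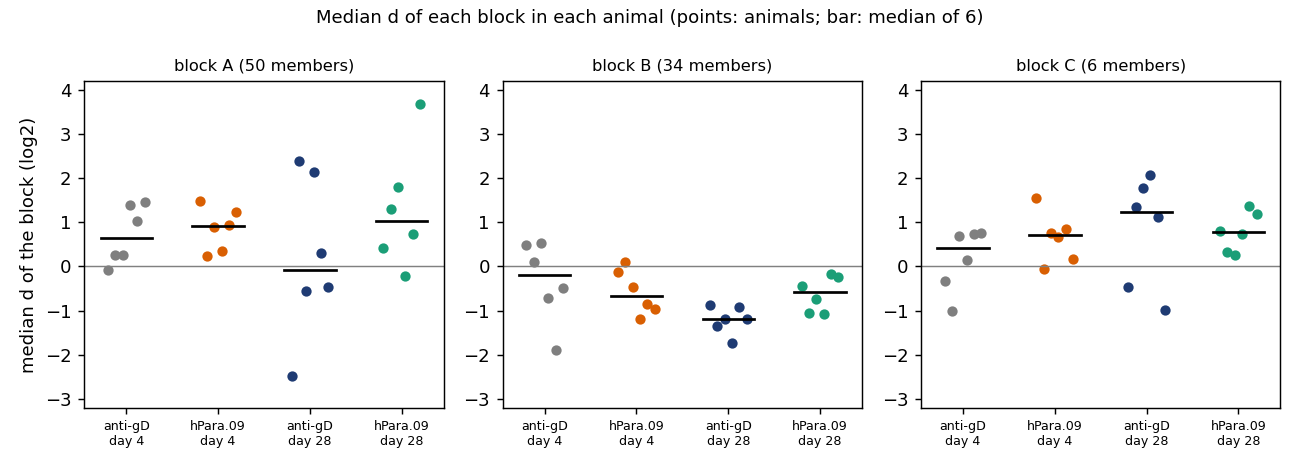
Median d (log2, vertical axis) of the members of blocks A, B and C in each animal, by group; points are animals and bars the median of 6. Block A spreads from -2.48 to 3.69, with both ends on day 28, and block B lies below 0 in all 12 animals of day 28.

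The blocks were not mirror images of each other. Over the 24 animals, the median d of block A and that of block B had a Pearson correlation of -0.072 (Spearman -0.11). Blocks A and C had 0.46 (Spearman 0.43), and 0.42 without animals 2 and 18, which were farthest from the median of block C. Blocks B and C had -0.28 (Spearman -0.20). These are descriptions over 24 animals, given without a test because the same d values built the blocks.

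Over all 24 animals, measures of the libraries moved most with block B. The block's median d had a correlation of 0.62 (Spearman 0.51) with the difference in the number of genes detected between an animal's libraries, and 0.38 without animals 5 and 16. With the difference in the share of the 30 most abundant IDs the correlation was -0.51 (Spearman -0.46), and -0.29 without animals 5 and 18. With the log2 ratio of the total counts it was 0.395 (Spearman 0.305), and with the difference in exonic share (the sum of counts as a percent of the number of reads that the deposited RPKM values imply) it was -0.36 (Spearman -0.38). For block A the same 4 correlations were 0.079, -0.26, -0.091 and 0.060, and for block C -0.10, -0.23, -0.095 and 0.080. Without animals 5 and 16, genes detected had a correlation of 0.33 with block A and 0.15 with block C. Without animals 5 and 18, the share of the 30 had -0.33 and -0.17. For these 2 measures, blocks A and B were thus alike once those animals were left out. Which of these measures has a part in the differences was not tested. Library 29 of animal 5, the shallowest, had the lowest summed level of block B, 249.1 CPM, against 1326 CPM in library 15. Library 3 of animal 3, of 18476410 counts, had the lowest level in the first set, 296.6 CPM.

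Many other genes followed the blocks. Among the 11286 non-members that averaged at least 5 CPM, 97 had a d with a correlation of at least 0.8 with the median d of block A, 482 with that of block B and 54 with that of block C. The gene most like block A was ENSMFAG00000002495 (correlation 0.96 over 24 animals), whose d was above 0 in 22 animals and thus outside the limit. The gene most like block B was ENSMFAG00000036776 (0.97), with a median absolute d of 0.52, and that most like block C was ENSMFAG00000030266 (0.93), with 0.49. Of the 482 genes that followed block B, 303 had d above 0 in fewer than 4 or more than 20 animals. A median absolute d under 0.7 was more frequent, with 388 of the 482. For block A, 29 of the 97 were outside the limits on direction and 85 were under 0.7. For block C these numbers were 16 and 54 of the 54. A gene can be in both counts. The rule thus cut members out of larger sets of genes that moved together.

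The animals were then compared by antibody and by day, which the rule had not used. Counts were summed over the paired libraries of each animal, and edgeR's quasi-likelihood test was fitted to 16721 genes over all 24 animals, with Benjamini-Hochberg adjustment over all genes. All 94 members passed the low-count filter. The biological coefficient of variation between animals of a group had a median of 49.9% over the members and 19.1% over all genes, and all 94 members lay above the latter. The members were therefore measured with wide errors: the median standard error of their log2 fold changes at day 28 was 0.42, and 0.68 in block A. The rule picked members for wide differences between the libraries that were summed. Part of their variation between animals may thus be built in.

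Between hPara.09 and anti-gD animals, no member passed the threshold of 0.05 on either day. At day 4, 0 of 94 members and 0 of 16721 genes (0%) passed in edgeR, and 0 members passed in DESeq2 or limma voom. Without adjustment, 2 members had p under 0.05, against 2.59% of all genes. The median log2 fold change of the members was 0.060, with 52 of 94 above 0, beside -0.009 for all genes. In block A 39 of 50 were above 0, with a median of 0.48. The member with the smallest p among those higher was ENSMFAG00000039509, with a log2 fold change of 0.61 ± 0.27 (SE, 6 against 6 animals, edgeR adjusted p = 0.9999). Its anti-gD animals had 2.35 to 5.92 CPM (median 4.74) and its hPara.09 animals 5.34 to 8.44 CPM (median 6.45), so the groups overlapped slightly. ENSMFAG00000026957 had -2.23 ± 1.03 (adjusted p = 0.9999). Its anti-gD animals had 0.0763 to 86.1 CPM (median 4.36) and its hPara.09 animals 0.894 to 7.57 CPM (median 2.71). The value of 86.1 CPM was animal 3, and without that animal the log2 fold change was 0.049.

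At day 28, 0 of 94 members and 0 of 16721 genes (0%) passed in edgeR, again with 0 members in DESeq2 and limma voom, and 4 members had an unadjusted p under 0.05 against 4.84% of all genes. Of the 94, 17 were above 0, and the median was -0.28, beside -0.004 for all genes. Block A had 7 of 50 above 0 (median -0.61), block B 4 of 34 (median -0.22) and block C 5 of 6 (median 0.29). Members of a block share animals and move together, so these counts are not independent. The lean downwards came from the first libraries: within libraries 1 to 24 the members' median was -0.51, with 10 of 94 above 0, and within libraries 25 to 48 it was -0.002, with 47 above 0. ENSMFAG00000000559 of block A had the smallest p, with -1.31 ± 0.41 (SE, adjusted p = 0.95). Its anti-gD animals had 2.64 to 14.2 CPM (median 7.66) and its hPara.09 animals 1.35 to 5.16 CPM (median 2.90), so the groups overlapped. ENSMFAG00000002477 of block B had the smallest p among those higher, 0.40 ± 0.20 (adjusted p = 0.95). Its anti-gD animals had 4.76 to 7.81 CPM (median 5.76) and its hPara.09 animals 5.02 to 11.0 CPM (median 8.06).

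ENSMFAG00000041678 shows what these errors allow. Its log2 fold change was 0.89 at day 4 (95% interval -1.17 to 2.95) and -1.20 at day 28 (-3.27 to 0.87). For ENSMFAG00000042789 of block B the day 28 value was -0.47 (-0.97 to 0.035), and for ENSMFAG00000043892 of block C 0.35 (-0.21 to 0.91). Each interval holds the differences between the antibodies that the 6 animals a group do not exclude.

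The antibody difference at day 28 was also set against that at day 4 as an interaction. In edgeR 0 members and 0 of 16721 genes (0%) passed, 0 members passed in DESeq2 and limma voom, and 8 members had an unadjusted p under 0.05, against 4.28% of all genes. The smallest p belonged to ENSMFAG00000002477, whose difference of log2 fold changes was 0.79 ± 0.29 (SE, adjusted p = 0.9996), and among those below 0 to ENSMFAG00000000559, with -1.48 ± 0.57 (adjusted p = 0.9996). In block A 6 of 50 members were above 0, with a median of -1.08 and a median SE of 0.97.

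**Figure D5:**
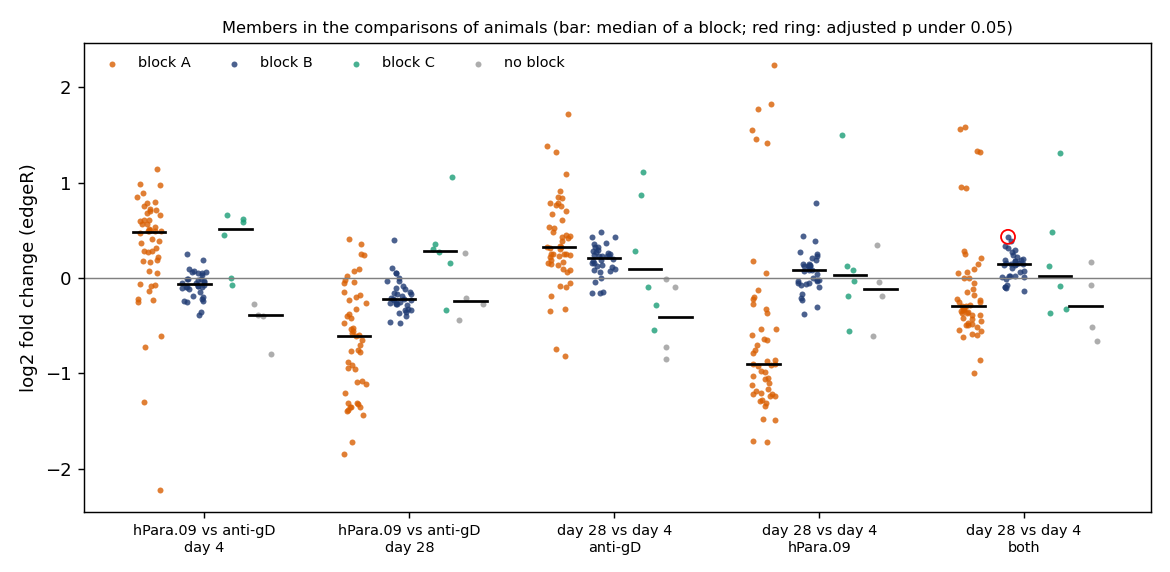
Log2 fold change (edgeR, vertical axis) of each member in 5 comparisons of animals, by block; bars are block medians and a red ring marks an adjusted p under 0.05. A single ring, ENSMFAG00000030258 in block B at 0.43, stands in the comparison of days over both antibodies, and 6 members of block A stand apart above the others in hPara.09 animals, at 1.41 to 2.24.

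Between day 28 and day 4, 1 member rose. Over both antibodies, 1 of 94 members passed in edgeR, against 770 of 16721 genes (4.60%), a smaller share than in all genes. This was ENSMFAG00000030258 of block B, with a log2 fold change of 0.43 ± 0.11 (SE, adjusted p = 0.029). Its animals had 7.09 to 14.9 CPM (median 9.86) in anti-gD day 4, 9.45 to 14.2 CPM (median 11.3) in hPara.09 day 4, 12.7 to 15.9 CPM (median 13.9) in anti-gD day 28 and 12.5 to 17.9 CPM (median 15.3) in hPara.09 day 28. The medians of both day 28 groups were above those of both day 4 groups, while the ranges overlapped. The call was lost with libraries 25 to 48 alone, where the value was 0.21 (adjusted p = 0.575), and without animal 2, 3, 4, 16 or 17, where the adjusted p was 0.0501 to 0.0563. Among the alternatives, the adjusted p lay between 0.00677 and 0.575. Over both antibodies 14 members had an unadjusted p under 0.05, against 23.6% of all genes, and DESeq2 called 3 members and limma voom 5.

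Within anti-gD animals, 0 of 94 members and 0 of 16721 genes (0%) passed in edgeR, 0 members passed in DESeq2 and limma voom, and 6 had an unadjusted p under 0.05 against 10.0% of all genes. Of the 94, 74 were above 0 with a median of 0.24, beside -0.001 for all genes. That lean also differed between library sets, with 78 above 0 in libraries 1 to 24 and 40 in libraries 25 to 48. ENSMFAG00000037301 of block C had 0.87 ± 0.32 (SE, adjusted p = 0.37), with 22.3 to 67.6 CPM (median 50.2) on day 4 and 32.7 to 185.0 CPM (median 67.1) on day 28. ENSMFAG00000039227 had -0.85 ± 0.38 (adjusted p = 0.47).

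Within hPara.09 animals, 0 of 94 members passed in edgeR against 44 of 16721 genes (0.263%), and 15 had an unadjusted p under 0.05 against 18.2% of all genes. DESeq2 called 1 member and limma voom 0. The called member was ENSMFAG00000002477, at 0.78 ± 0.20 (SE) in edgeR with an adjusted p of 0.066, and with an adjusted p of 0.0143 in DESeq2. It had 3.54 to 5.60 CPM (median 4.71) on day 4 and 5.02 to 11.0 CPM (median 8.06) on day 28, so 1 or more day 28 animals lay within the day 4 range. In anti-gD animals the same gene had 3.75 to 8.55 CPM (median 6.28) on day 4 and 4.76 to 7.81 CPM (median 5.76) on day 28. No member had groups without overlap in any of the 5 comparisons of levels, where 0.0957%, 0.173%, 0.341%, 2.08% and 0.0239% of all genes did, in the order antibody at day 4, antibody at day 28, day in anti-gD, day in hPara.09 and day over both.

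Block A divided in the hPara.09 animals. Its median log2 fold change from day 4 to day 28 was -0.90, yet 6 of its members and 1 of block C were above 1, at 1.41 to 2.24, and the next highest member stood at 0.78. Of the other 44 members of block A, 42 were below 0, with a median of -0.95. The 6 were loosely joined to block A by d. Their mean correlations of d with its other members were 0.57 to 0.67, against a mean pairwise value of 0.77 in the block. That range also held ENSMFAG00000003811 (0.62), which is not among the 6. These 7 genes were singled out after their values were seen and get no test as a group, and in edgeR none of them passed alone (adjusted p = 0.22 to 0.33). Their log2 levels had a mean pairwise correlation of 0.70 over the 48 libraries (from 0.33 to 0.94). It was 0.72 within libraries 1 to 24 and 0.68 within libraries 25 to 48, beside 0.63 in each for all of block A. The 7 were picked from these same libraries for a shared rise, so some of this correlation is built in. Of the 6 members under 400 bases wide, a limit not set in advance, 4 were among the 7. Just above that limit lies ENSMFAG00000041422 of block A, at 413 bases and not among the 7. Under 1000 bases there were 15 members, with the same 4 among the 7.

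ENSMFAG00000030705, of 351 bases, is an example. It had 0.915 to 79.0 CPM (median 6.52) in anti-gD day 4, 3.55 to 13.1 CPM (median 5.52) in hPara.09 day 4, 13.0 to 56.2 CPM (median 30.3) in anti-gD day 28 and 3.45 to 58.2 CPM (median 21.3) in hPara.09 day 28 animals. Its log2 fold change was 1.82 ± 0.81 (SE, adjusted p = 0.23) in hPara.09 and 0.85 ± 0.79 (adjusted p = 0.73) in anti-gD animals. ENSMFAG00000027015, of 396 bases, had medians of 2.63, 2.00, 13.3 and 10.8 CPM in the same order of groups, and 1.57 ± 0.50 over both antibodies (adjusted p = 0.066). In the anti-gD day 4 group, animal 3 was highest for all 7 genes, for example at 79.0 CPM for ENSMFAG00000030705 and 17.1 CPM for ENSMFAG00000027015.

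The size of the difference between an animal's libraries, the absolute d, is given by group as a description only, because the rule chose the members by it. ENSMFAG00000045560 of block B had an absolute d of 0.27 to 2.48 (median 1.204) in the 12 anti-gD animals and 0.084 to 1.66 (median 0.24) in the 12 hPara.09 animals. ENSMFAG00000027015 of block A had 0.023 to 1.21 (median 0.27) in the 12 animals of day 4 and 0.11 to 3.18 (median 1.39) in those of day 28. ENSMFAG00000030705 of block A had 0.031 to 1.39 (median 0.28) on day 4 and 0.30 to 2.39 (median 1.36) on day 28. These members were picked for their differences, and the groups overlapped in all 3.

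Read by animal, the median absolute d of the 94 members ran from 0.21 in animal 8 to 2.00 in animal 16. The same median over all 11380 genes ran from 0.13 in animal 8 to 0.39 in animal 16. The ratio of the members to all genes was highest in animal 24, at 8.48 (1.68 against 0.20), and lowest in animal 8, at 1.58. Animals 16 and 5 had the largest differences over all genes, 0.39 and 0.38.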

How the data were processed

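Cerebral cortex RNA of 24 cynomolgus monkeys was measured in 48 libraries. Per the file headers, each deposited table gives a gene ID, an exonic count, a gene width and an RPKM. The counts are the authors' whole numbers. GSNAP is the only tool in the submitters' processing notes. The genome build, annotation, strand setting and treatment of shared reads are not stated, so genes with close copies or overlapping neighbours are uncertain. The authors' deposited RPKM was used for levels per length and for the exonic share. CPM was computed from the counts, and libraries n and n + 24 carry the same animal label.

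The members and lists were chosen with earlier results of these data known. Gene lists and cell type markers were not analysed, because no ID has a name. Blocks came from average linkage on 1 minus the Pearson correlation of d, cut at 0.5, with at least 4 members. Group tests used edgeR 4.0.16 (R 4.3.3) on counts summed per animal (TMM, default filter, robust dispersions, 1 mean per group). They were two-sided, with a threshold of 0.05 on p adjusted over all genes, and an edgeR SE was taken from the fold change and its F. Absolute d was also fitted with limma 3.58.1, but the rule used the same values, so those p-values are not given. The scripts were tested on simulated counts, in which all genes had the same dispersion, lower than is typical of the members. The simulation thus does not show what the tests can detect in members. Alternatives were upper-quartile factors, no filter, single library sets, DESeq2 1.42.0, limma voom with the animal as a correlated block, other scalings and each animal left out. Members were named by a rule (largest median absolute d, highest CPM, extreme widths, nearest the limits, most central of a block, past 0.05 or smallest p in each direction), and not all so named are described. The 7 genes above 1 in hPara.09 animals, and members with the lowest paired correlation or outside the blocks, were chosen after their values were seen.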

Additional observations from a re-analysis of the deposited data

Results flagged for a closer look

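In 64 sets of 6 animals, each from 1 group, 1 animal far from the other 5 was looked for. The measure was its gap to the nearest animal as a share of the whole range. Most sets held the CPM of a central member of a block over an animal's summed libraries. The others held the median d of block A, B or C, or the median absolute d of all members. These rest on the d values that the rule used. In 7 sets, all of CPM, an animal stood apart. The limit used gives about 1 in 20 for independent values with a normal spread. The members were picked for wide differences and move together, so 7 of 64 cannot be set against that share. ENSMFAG00000042588 of block A was at 50.1 CPM in animal 9 (hPara.09 day 4), against 3.41 to 11.4 CPM in the other 5. ENSMFAG00000045512 of block A was at 125.1 CPM in the same animal, against 11.6 to 44.2 CPM. ENSMFAG00000031849 of block A was at 25.3 CPM in animal 3 (anti-gD day 4), against 4.10 to 11.3 CPM. ENSMFAG00000043892 of block C was at 97.5 CPM in animal 3, against 35.5 to 47.9 CPM, and at 69.5 CPM in animal 7 (hPara.09 day 4), against 43.3 to 51.5 CPM. ENSMFAG00000003917 of block B was at 32.6 CPM in animal 19 (hPara.09 day 28), against 16.7 to 21.9 CPM. ENSMFAG00000045243 of block C was at 1912 CPM in animal 15 (anti-gD day 28), against 233.0 to 581.2 CPM.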

How the results depend on the processing

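Of 691 values recomputed for named members under the alternatives, over 29 pairs of a member and a comparison, 672 kept their direction and their side of the threshold, 12 reversed, 6 lost the threshold and 1 passed it. Only 1 pair, ENSMFAG00000030258 over both antibodies, passed in the main fit, so the 6 losses were all its own. Most other pairs began far above the threshold, so keeping their side says little. The tally includes differences in absolute d, which are a description only. With day over both antibodies, 1 member passed with upper-quartile factors or no filter, 3 with libraries 1 to 24, 0 with libraries 25 to 48, 3 in DESeq2 and 5 in limma voom. Leaving out an animal gave 0 to 4, with 0 without animal 2, 4, 16 or 17 and 4 without animal 3. In hPara.09 animals DESeq2 called 1 member. ENSMFAG00000026957 at day 4 ran from -2.58 to 0.049 when single animals were left out, reversing without animal 3, and was 0.25 in limma voom. With libraries 25 to 48 alone, ENSMFAG00000024784 at day 28 reversed to 0.22, ENSMFAG00000003844 in the interaction to 0.085 and ENSMFAG00000030258 in anti-gD animals to -0.068. ENSMFAG00000043667 reversed in the difference in absolute d between days, a description only, with values of -0.061 to 0.059 when single animals were left out. The cause of these changes was not tested.

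The rule itself depended on the scale: 52 members remained with a pseudocount of 2 CPM, all among the 94, and 78 with TMM library sizes (69 shared) or 106 without the 30 most abundant IDs in the sum (79 shared). Leaving out an animal gave 70 to 95, and leaving out animals 5 and 16, a choice made after seeing the data, gave 75 (73 shared). No paired analysis was possible because the antibody and day groups are made of different animals. Counting error of d, a log2 standard error for an animal's paired libraries, had a median of 0.14 in members. The coefficient of variation of 49.9% is for summed counts between animals of a group, on another scale, so the values cannot be compared directly.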
